A study of Homo sapiens with 17 samples.

Results

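The MYC and MAX network is a set of 10 genes for transcription factors that work in pairs, taken here by symbol: *MYC*, *MYCN*, *MAX*, *MXD1*, *MXD3*, *MXD4*, *MXI1*, *MNT*, *MGA* and *MLX*. All 10 were among the 19222 genes listed for the 1 h experiment, and 8 of them were among the 9982 genes listed for the 2 h experiment. The cells were HEK-293T, a transformed human embryonic kidney line that the labels give as wild type, and the drug was emetine, which stops ribosomes from moving along mRNA. In the 1 h experiment, 3 libraries came from cells given 500 µM 4-thiouridine (s4U) for 1 h without drug and 3 from cells given the same s4U together with 1.8 µM emetine. The remaining pair of 1 h libraries, 1 untreated and 1 with 1.8 µM emetine, had no s4U. The 2 h experiment had 3 untreated libraries, 3 with 1.8 µM and 3 with 240 µM emetine, all labeled with 250 µM s4U. The question put to the 1 h libraries was whether a low dose of emetine changes the amount of an RNA, its synthesis or its decay.

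MYC and MYCN activate transcription only as heterodimers with MAX, and these dimers bind E-box DNA, whose best known form is CACGTG. MXD1, MXI1, MXD3, MXD4 and MNT compete for MAX and bring the SIN3 corepressor complex to the same sites, MGA pairs with MAX inside a polycomb complex, and MLX is a MAX-like partner shared with some of the MXD proteins, MNT and the glucose-sensing factors MondoA and ChREBP. *MYC* mRNA and MYC protein are both known for rapid turnover, and loss of translation has long been known to stabilize *MYC* mRNA.

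The CACGTG hexamer is shown here because it is the element through which the network's own proteins act, so it marks members that other members could bind. RefSeq promoter windows of 300 bases on GRCh38, from 250 bases before to 50 bases after an annotated start, were at hand for 9 of the 10 members, in 14 windows, with none for *MYC*. The hexamer, which reads the same on both strands, occurred in 1 window each of 3 members, compared with 7.26% of 35116 windows of all genes. The 30 bases around each match are given 5′ to 3′ on the gene's strand, with the hexamer in capitals. They lie at chr4:2262330-2262359 (minus strand) for *MXD4*, at chr17:2401236-2401265 (minus strand) for *MNT* and at chr17:42567038-42567067 (plus strand) for *MLX*, with the hexamer starting at positions -238, -193 and -50 from the start site.
MXD4: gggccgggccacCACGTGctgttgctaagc
MNT: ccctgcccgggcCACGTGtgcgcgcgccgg
MLX: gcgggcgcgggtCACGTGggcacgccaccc
A match describes the letters and does not show binding.

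The 6 libraries with s4U held 22246279 to 40018063 reads assigned to genes, and the libraries without s4U held 23905660 and 31314746. Emetine replicate 3 stood apart from the other libraries: the SD of its log2 levels around its group mean was 0.258 over genes, compared with 0.0878 to 0.155 in the other 5 libraries, its deviations followed transcript length (Spearman's rho over genes 0.76, compared with -0.69 and -0.68 in the other emetine libraries, whose deviations are from the same mean), and leaving it out lowered the common biological coefficient of variation from 13.3% to 6.43%. Untreated replicate 1 had the lowest median fraction new of the 6, 9.26%, compared with 10.3% to 14.7% in the others. The highest was that of untreated replicate 3, at 14.7%. Calls of members that changed without emetine replicate 3 or untreated replicate 1 are given beside the results. Over all genes, leaving out emetine replicate 3 raised the share called in level from 2.68% to 13.9%, and leaving out untreated replicate 1 lowered it to 0.0294% and raised that of fraction new from 5.05% to 23.8%. Leaving out untreated replicate 3 instead lowered the share called in fraction new to 0.995%. It also moved the median logit difference of all genes from -0.16 to -0.041. The labels do not say that replicates came from separate cultures, so the tests measure the spread between these libraries only. All 6 HEK-293T lineage genes looked for (*NEFL*, *NEFM*, *VIM*, *KRT8*, *KRT18* and *LIN28B*) had reads. Of 6 genes of other cell types, *PTPRC*, *CD3E* and *INS* had no row, *MYH7* had 0 to 1 reads, *ALB* 0 to 10 and *HBA1* 9 to 62 reads per library.

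In untreated cells, the network was led by *MYC*, its partner *MAX*, *MLX* and *MXD4*. Levels are in CPM (read counts scaled to library size), and levels of different genes are compared as CPM per kb of transcript. *MYC* stood at 51.2 ± 1.6 CPM per kb (SD, n = 3) and *MAX* at 47.4 ± 0.242, and every untreated library had them in this order. *MLX* (34.0 ± 2.33) and *MXD4* (33.5 ± 0.341) overlapped and could not be ranked. *MXD3* followed at 27.9 ± 3.50 CPM per kb, *MXI1* at 7.96 ± 1.13, *MNT* at 6.09 ± 0.193, *MGA* at 2.07 ± 0.164 and *MXD1* at 1.80 ± 0.0159, with no overlap between neighbours. *MYCN*, the paralog of *MYC* known from neuroblastoma, was barely detected, at 0.137 ± 0.0116 CPM per kb and 8 to 14 reads in each of the 8 libraries. It failed the filter on low counts, so 9 of the 10 members entered each test below.

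**Figure D1:**
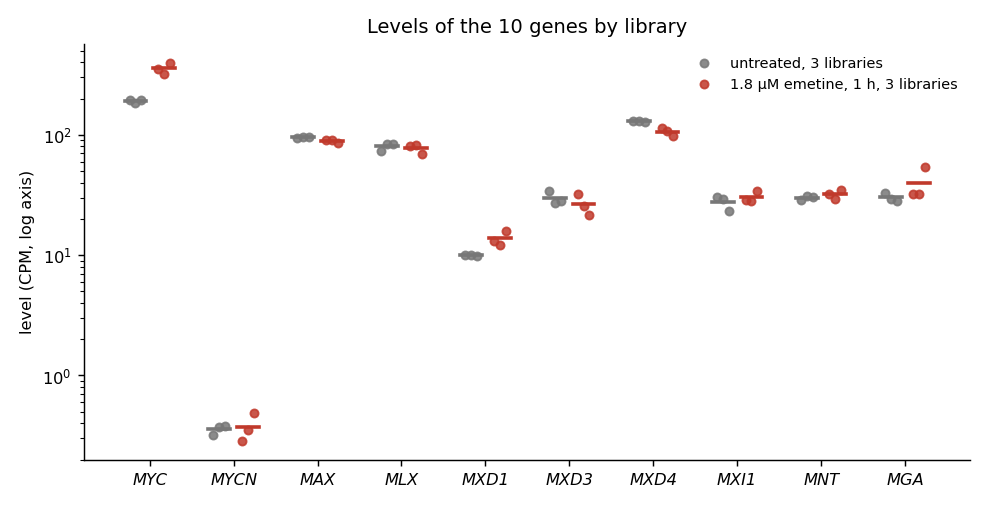
Level of each of the 10 genes in CPM (log axis) in each of the 3 untreated (gray) and 3 emetine-treated (red) libraries with s4U, with lines at the group means. The 3 emetine libraries of *MYC*, at 321 to 396 CPM, all lie above the untreated ones, at 184 to 194 CPM.

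The members also differed widely in turnover. TimeLapse chemistry turns s4U into a base read as C, so reads with T-to-C conversions come from RNA made during the hour, and the fraction new is the estimated share of such reads. In untreated cells, the fraction new of *MYC* was 67.8%, 80.0% and 85.0% in replicates 1, 2 and 3, which is higher than that of 99.2% of the 10763 genes that had 100 or more reads in every s4U library. The fraction new of *MXD1*, an antagonist of MYC associated with differentiation, was 59.6%, 67.1% and 67.7% and higher than that of 98.1% of genes. The median of all genes was 12.2%. With a steady state and labeling from the start of the hour assumed, these values correspond to half-lives of 28.1 ± 7.66 min for *MYC* and 40.0 ± 5.08 min for *MXD1* (SD, n = 3). Both were shorter than those of the other 7 members with enough reads in all 3 libraries, and *MYC* was shorter than *MXD1* in all 3.

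The other repressors and partners were longer-lived. Half-lives were 112 ± 38.6 min for *MNT*, 141 ± 31.6 min for *MGA*, 172 ± 44.7 min for *MLX*, 203 ± 5.79 min for *MXI1* and 221 ± 50.1 min for *MXD3*, and each of these overlapped its neighbour in that order. *MAX*, at 348 ± 70.4 min, and *MXD4*, at 637 ± 224 min, were the longest-lived and did not overlap with each other or with the rest. *MYC* thus had a much shorter half-life than its obligate partner *MAX* at a similar level per kb. The 3′ UTRs of *MXD1* and *MYC* held 10 and 6 ATTTA pentamers, the core of AU-rich elements, while those of *MGA*, *MXI1*, *MAX*, *MLX* and *MYCN* held 7, 4, 3, 2 and 2, and those of *MXD3*, *MXD4* and *MNT* none. At least 6 pentamers were found in 29.7% and at least 10 in 15.8% of 9884 coding genes. Per kb of 3′ UTR, *MYC* held 3.01, *MAX* 2.22, *MYCN* 2.21 and *MXD1* 2.15, compared with a median of 1.75 for these genes, so the long-lived *MAX* was not below the short-lived *MXD1*.

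**Figure D2:**
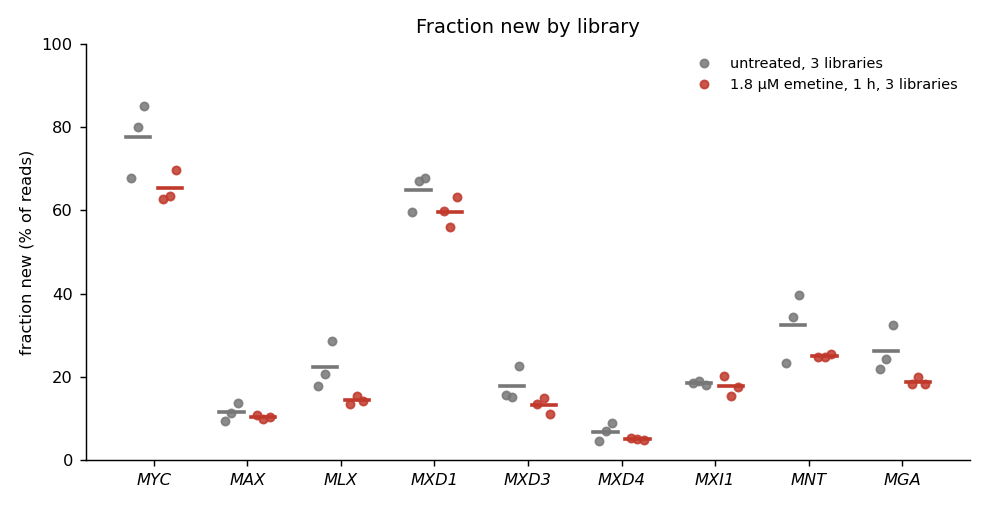
Fraction new, in percent of reads, of the 9 members with enough reads in each untreated (gray) and emetine-treated (red) library, with lines at the group means. *MYC* and *MXD1* lie above 50%, all other members below 40%, and the emetine libraries of *MLX*, *MXD3* and *MGA* all lie below the untreated ones.

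*MYC* was the 1 member whose level changed after 1 h of emetine. Of the 9 members, 1 passed an adjusted p of 0.05 in the edgeR test, compared with 2.68% of the 13776 genes tested, those with more than 100 reads in all. The level of *MYC* was 194, 184 and 194 CPM in the untreated libraries and 353, 321 and 396 CPM in the emetine libraries. The groups did not overlap, and the rise was 1.87-fold (log2 0.90, SE 0.10, adjusted p = 0.00656). The rise kept its size but lost the call when any 1 untreated library was left out (log2 0.88 to 0.92, adjusted p = 0.0628 to 0.0893), where 4, 5 and 19 genes were called in all instead of 369, and it was called without emetine replicate 3 (log2 0.82, adjusted p = 1.29e-06). Of the libraries without s4U, which have no replicates, the untreated one had 212 CPM and the emetine one 482 CPM of *MYC*, a ratio of 2.28 (log2 1.19, 95% interval 1.14 to 1.23 for counting error only).

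Unlabeled *MYC* reads, which stand for RNA made before the hour, rose with emetine. Computed as the level times the share not new, they were 62.4, 36.8 and 29.1 CPM in untreated cells and 132, 117 and 119.7 CPM with emetine. They rose 3.0-fold (log2 1.58, SE 0.23, adjusted p = 0.00520 by limma), and *MYC* was the 1 member of 9 that passed, compared with 7.4% of the 10763 genes tested. As a share of the mean untreated level, unlabeled *MYC* went from 22.4 ± 9.14% to 64.5 ± 4.08% (SD, n = 3 each). Without emetine replicate 3 the difference was a log2 of 1.61 but its adjusted p was 0.0867, and with spike-in scaling it was 2.21 (adjusted p = 0.000496), compared with a median of 0.66 for all genes.

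Labeled *MYC* reads, from RNA made during the hour, were 131, 147 and 165 CPM in untreated cells and 221, 204 and 276 CPM with emetine, and the groups did not overlap. The difference, a log2 of 0.65 (SE 0.19), had an adjusted p of 0.0688, and without untreated replicate 1 it was 0.57 with an adjusted p of 0.0253, in a fit that called 16.7% of all genes for labeled reads. Without untreated replicate 3 it was 0.735 with an adjusted p of 0.0626. With spike-in scaling it was 1.28 (SE 0.45, adjusted p = 0.712), compared with a median of 0.41 for all genes. The fraction new of *MYC* was 62.6%, 63.5% and 69.8% with emetine. The highest emetine library thus lay above the lowest untreated one (67.8%), and the difference did not pass (logit -0.65, SE 0.27, adjusted p = 0.159). Without untreated replicate 1 it was -0.93 with an adjusted p of 0.00916, in a fit that called 23.8% of all genes and moved their median logit difference from -0.16 to -0.31. Without untreated replicate 3 the difference for *MYC* was -0.43 with an adjusted p of 0.562, in a fit that called 0.995% of all genes.

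**Figure D3:**
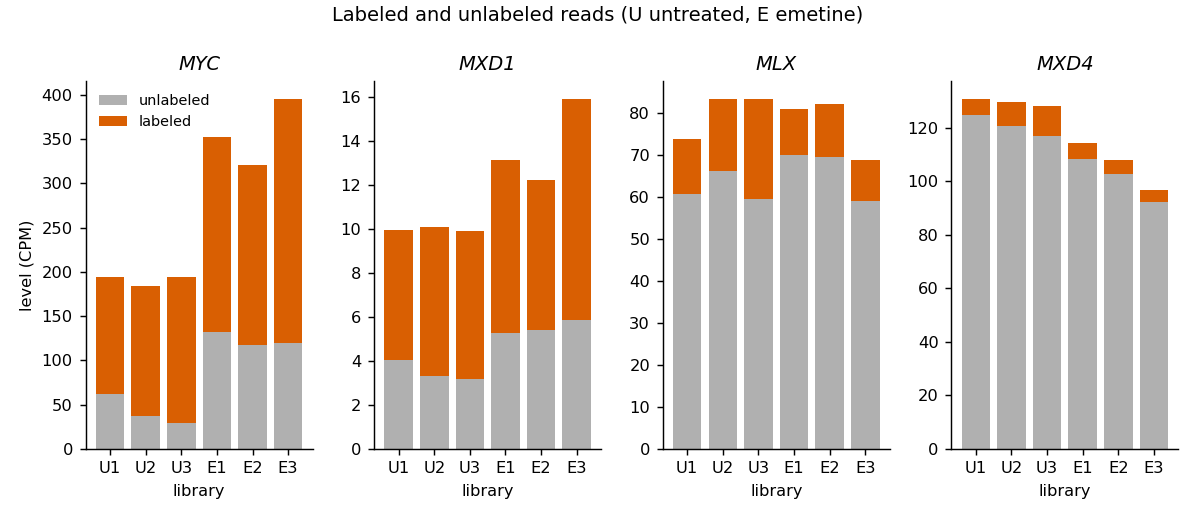
Unlabeled (gray) and labeled (orange) reads of 4 members in CPM, stacked for each untreated (U1 to U3) and emetine (E1 to E3) library, on separate linear axes. Unlabeled *MYC* lies at 29.1 to 62.4 CPM in untreated and 117 to 132 CPM in emetine libraries. Labeled *MLX* and *MXD4* are lower in every emetine library than in any untreated one.

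*MXD1*, the other short-lived member, had emetine libraries above the untreated ones in both label classes, but no measure passed. Its level was 9.97, 10.1 and 9.91 CPM in untreated cells and 13.1, 12.3 and 15.9 CPM with emetine. Among the 9 members, only *MYC* and *MXD1* had every emetine library above every untreated one in level, as did 19.5% of all genes tested. The *MXD1* difference was a log2 of 0.46 (SE 0.14, adjusted p = 0.120), and without emetine replicate 3 it was 0.35 with an adjusted p of 0.0460.

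Unlabeled *MXD1* reads were 4.03, 3.32 and 3.20 CPM in untreated cells and 5.28, 5.39 and 5.88 CPM with emetine. This difference had a log2 of 0.59 (SE 0.15) and an adjusted p of 0.0513, and without untreated replicate 1 it was 0.68 with an adjusted p of 0.0461. The fraction new of *MXD1* went from 64.8 ± 4.52% to 59.7 ± 3.55% (adjusted p = 0.752), with overlap. In the libraries without s4U, *MXD1* was at 12.6 and 13.7 CPM, a log2 ratio of 0.12 with a counting interval of -0.10 to 0.34.

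*MXD4* and *MAX*, the longest-lived members, had every emetine library below every untreated one in level, as had 15.2% of all genes tested, but neither passed the test. *MXD4*, a repressor that pairs with MAX, was at 131, 129.5 and 128 CPM in untreated cells and at 114, 108 and 96.9 CPM with emetine (log2 -0.28, SE 0.09, adjusted p = 0.143). It passed with DESeq2 (log2 -0.31, adjusted p = 0.0402), after a trend on transcript length was removed (log2 -0.36, adjusted p = 0.0402) and without emetine replicate 3 (log2 -0.22, adjusted p = 0.0229). These fits called 7.08%, 7.11% and 13.9% of all genes, compared with 2.68% in the main test. *MAX* was at 94.9, 95.8 and 95.3 CPM in untreated cells and at 90.3, 91.0 and 85.6 CPM with emetine (log2 -0.10, SE 0.08, adjusted p = 0.448). In the libraries without s4U, the log2 ratio was -0.21 for *MXD4* (counting interval -0.28 to -0.14) and -0.16 for *MAX* (-0.24 to -0.08). Both signs in the s4U libraries depended on the scaling. When the libraries were scaled to their spike-in reads, the median of all genes moved to a log2 of 0.71, and *MAX*, *MXD3*, *MXD4* and *MLX* were then at 0.58, 0.56, 0.40 and 0.61, positive but below that median. These values were imprecise, with an SE of 0.46 for *MAX* and for *MXD4* (adjusted p = 0.330 and 0.444). Spike-in reads made up 0.304%, 0.666% and 0.408% of reads in the emetine libraries and 0.480% to 0.728% in the untreated ones. On the same scale *MXD1* was at 1.16 and *MYC* at 1.61, above the median of all genes. No member was called (*MYC* adjusted p = 0.0712), compared with 0.436% of all genes.

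Labeled reads of *MLX* and *MXD4*, which both carry a CACGTG in the promoter window shown above, lay lower in every emetine library than in any untreated one, which 11.3% of the genes tested did. Any link between the hexamer and labeled reads was not tested. *MLX* had 13.2, 17.2 and 23.8 labeled CPM in untreated cells and 10.9, 12.6 and 9.81 with emetine. *MXD4* had 6.02, 8.96 and 11.4 labeled CPM in untreated cells and 5.93, 5.45 and 4.59 with emetine. Neither difference passed, with a log2 of -0.65 (SE 0.24, adjusted p = 0.177) for *MLX* and of -0.64 (SE 0.25, adjusted p = 0.240) for *MXD4*. No member was called for labeled reads, compared with 0.892% of the genes tested. With untreated replicate 1 left out, *MLX* (log2 -0.85, adjusted p = 0.00434) and *MXD4* (log2 -0.87, adjusted p = 0.00602) both passed, in a fit that called 16.7% of all genes and moved their median log2 difference from -0.14 to -0.29. With untreated replicate 3 left out, *MLX* was at -0.43 (adjusted p = 0.594) and *MXD4* at -0.44 (adjusted p = 0.629). With spike-in scaling, which moved the median of labeled reads over all genes to 0.41, *MLX* was at -0.041 and *MXD4* at -0.052. *MNT*, the third member with a CACGTG, had 6.77, 10.5 and 12.02 labeled CPM in untreated cells and 8.05, 7.34 and 8.89 with emetine, with overlap.

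The fraction new does not depend on the scaling of the libraries. On the logit scale it was on average lower with emetine in 9 of 9 members, although *MAX* (0.0069) and *MXI1* (0.066) turned to slightly higher once the library medians were aligned. The 9 members had a median logit difference of -0.34 compared with -0.16 for all 10763 genes. No member passed, compared with 5.05% of genes, but *MLX*, *MXD3* and *MGA* were lower in every emetine library than in any untreated one, as were 16.8% of genes. *MLX* had 17.8%, 20.7% and 28.6% in untreated cells and 13.4%, 15.3% and 14.3% with emetine (logit -0.52, SE 0.21, adjusted p = 0.150). It passed after the library medians over genes had been aligned (logit -0.40, adjusted p = 0.0421) and without untreated replicate 1 (logit -0.66, adjusted p = 0.0207). These fits called 8.12% and 23.8% of all genes. Without untreated replicate 3 the logit difference of *MLX* was -0.35 (adjusted p = 0.437). *MXD4* (logit -0.48, adjusted p = 0.0489), *MNT* (-0.56, 0.0154) and *MGA* (-0.52, 0.0368) also passed without untreated replicate 1. Without untreated replicate 3 these genes were at -0.13, -0.18 and -0.26 (adjusted p = 0.880, 0.811 and 0.632). *MLX* shares 775 exonic bases with *PSMC3IP* on the opposite strand. *MNT* (1065), *MGA* (510), *MXI1* (205), *MYC* (194), *MAX* (108) and *MYCN* (98) share bases with opposite-strand genes for long noncoding RNAs. Whether strand was used in counting is not given in the sources used here.

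*MGA*, the largest protein of the network, was at 32.8, 29.5 and 28.2 CPM in untreated cells and at 32.3, 32.4 and 54.5 CPM with emetine. The third emetine library, which stood apart over all genes, alone was high. In it 13.4% of *MGA* reads spanned an exon junction, compared with 2.63% to 7.30% in the other 7 libraries. That library was also the highest for *MXI1* (25.9%), *MAX* (23.5%), *MNT* (7.52%), *MXD3* (46.4%), *MLX* (36.8%) and *MXD1* (5.18%). It was not for *MYC*, *MXD4* or *MYCN*. Over all genes its share was 45.4%, within the 39.9% to 50.5% of the other libraries. The log2 difference in level of *MGA* was 0.39 (SE 0.20, adjusted p = 0.267). Without emetine replicate 3 it was 0.10, and with the length trend removed it was 0.14. The fraction new of *MGA* did not follow the level. It was 21.9%, 24.3% and 32.4% in untreated cells and 18.3%, 19.96% and 18.3% with emetine. Its logit difference was -0.41 (SE 0.21, adjusted p = 0.312, and 0.0368 without untreated replicate 1).

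*MNT*, *MXI1* and *MXD3* overlapped between the groups in level and did not pass. *MNT*, a broadly expressed MAX partner, was at 30.0 ± 0.952 CPM in untreated cells and 32.3 ± 2.69 CPM with emetine (SD, n = 3 each, log2 0.11, SE 0.10). Its fraction new was 23.4%, 34.3% and 39.6% in untreated cells and 24.8%, 24.8% and 25.5% with emetine (adjusted p = 0.466, and 0.0154 without untreated replicate 1). *MXI1* was at 27.6 ± 3.92 and 30.3 ± 3.34 CPM (log2 0.13, SE 0.13), with a fraction new of 18.5 ± 0.478% and 17.7 ± 2.33%. *MXD3* was at 29.8 ± 3.74 and 26.6 ± 5.51 CPM (log2 -0.16, SE 0.16), with a fraction new of 15.6%, 15.1% and 22.5% in untreated cells and 13.5%, 14.8% and 11.1% with emetine. With the length trend removed the level differences of *MXD3* and *MNT* changed sign, to 0.066 and -0.033. In the libraries without s4U, *MXI1* went the other way, with a log2 ratio of -0.27 (counting interval -0.41 to -0.12). There the ratio was 0.09 for *MNT* (-0.05 to 0.23) and -0.08 for *MXD3* (-0.22 to 0.05).

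**Figure D4:**
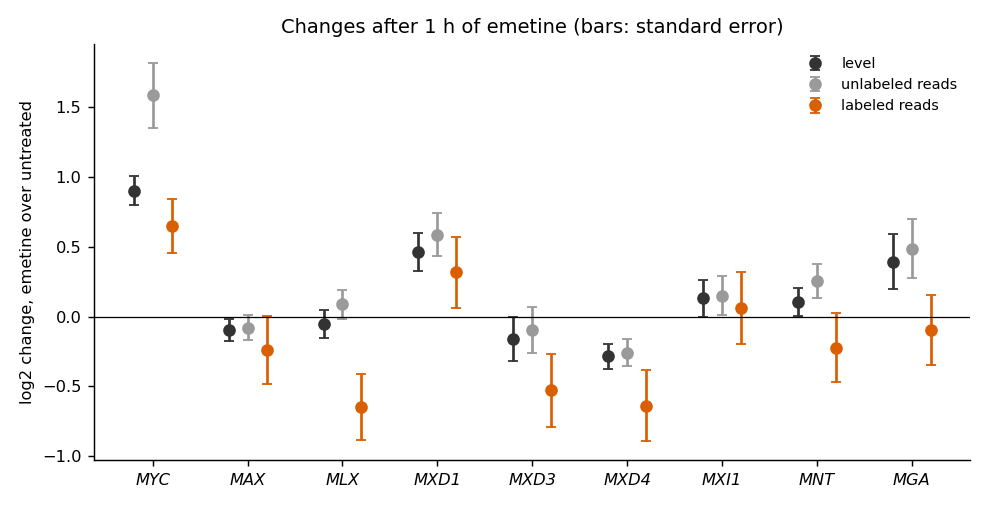
Log2 difference between emetine and untreated libraries (n = 3 each) in level (black), unlabeled reads (light gray) and labeled reads (orange) for the 9 members tested, with bars for the standard error. *MYC* has the largest differences in level (0.90) and in unlabeled reads (1.58) among the 9, and only these 2 points passed the test.

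Over the 9 members the median log2 difference was 0.11 in level (0.03 for all genes tested), 0.15 in unlabeled reads (0.04) and -0.23 in labeled reads (-0.14). Unlabeled reads did not overlap between groups in 6 members. *MYC*, *MXD1*, *MNT* and *MGA* were above the untreated libraries (4 of 9 compared with 23.9% of genes), while *MAX* and *MXD4* were below (2 of 9 compared with 16.2%). The signs of *MAX* and *MXD4* turned with spike-in scaling, to 0.54 and 0.37. Labeled reads were above in *MYC* and *MXD1* (2 of 9 compared with 3.31% of genes).

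Of the 3 further members of the extended network (*MYCL*, *MLXIP* and *MLXIPL*), none passed in level or fraction new, and *MLXIPL* rose in level without emetine replicate 3 (1 of 3 compared with 13.9% of all genes). *MYCL* had 148 to 264 reads per library and a fraction new of 40.4 ± 5.25% in untreated cells. Among 12 genes of the SIN3 complex, which the MXD proteins and MNT recruit, 1 rose in level and none fell, compared with 2.68% of all genes in either direction. It was *ARID4B*, a subunit of the complex, which went from 17.9 ± 0.789 to 35.1 ± 10.1 CPM (log2 0.97, adjusted p = 0.0325). Its fraction new fell from 52.3 ± 15.1% to 33.0 ± 1.00% (adjusted p = 0.0368), while without emetine replicate 3 that adjusted p was 0.131, and without untreated replicate 1 the adjusted p for its level was 0.176. Without emetine replicate 3, *ARID4A* rose in level as well (2 of 12 compared with 13.9% of all genes). Without untreated replicate 1 the fraction new of *SIN3B*, *SAP30* and *ARID4B* fell (3 of 12 compared with 23.8% of all genes). None of 10 genes for partners of MGA in the polycomb complex passed in either measure. *PCGF6* rose in level without emetine replicate 3 (1 of 10 compared with 13.9% of all genes). *E2F6* and *RYBP* fell in fraction new without untreated replicate 1 (2 of 10 compared with 23.8% of all genes).

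Among 20 genes for partners of MYC and its protein turnover, none was called in level, and without emetine replicate 3 the share was 4 of 20 compared with 13.9% of all genes, with 2 higher and 2 lower. *AURKA*, the kinase known to shield MYCN from degradation, fell in fraction new from 15.3 ± 5.18% to 7.78 ± 0.457% (adjusted p = 0.0305, and 0.124 without emetine replicate 3), 1 of 19 genes tested compared with 5.05% of all genes. Its labeled reads fell as well (log2 -0.94, adjusted p = 0.0172, and 0.234 without emetine replicate 3), 1 of 19 compared with 0.892% of all genes. Without untreated replicate 1, 4 of the 19 fell in fraction new (*FBXW7*, *USP36*, *AURKA* and *CDK9*), in a fit that called 23.8% of all genes. Of 12 genes for proteins that bind *MYC* mRNA, none was called in level and 1 of the 11 tested fell in fraction new, compared with 5.05% of all genes. This was *ZFP36L2*, a protein that promotes the decay of AU-rich mRNAs, at 86.5 ± 5.58% in untreated cells and 72.5 ± 1.92% with emetine (adjusted p = 0.0267, and 0.161 without emetine replicate 3). *KHSRP* and *YBX1* fell in level without emetine replicate 3 (2 of 12 compared with 13.9% of all genes). *ZFP36L1* joined *ZFP36L2* in fraction new without untreated replicate 1 (2 of 11 compared with 23.8% of all genes).

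None of the 23 textbook MYC target genes in the table was called in level or fraction new, and their median log2 difference in level was -0.17, compared with 0.03 for all genes. In unlabeled reads 1 of the 23 passed, compared with 7.4% of all genes tested. It was *CDC25A*, a cell cycle phosphatase (log2 0.46, adjusted p = 0.0289, and 0.0613 without untreated replicate 1). Of the lists above, unlabeled reads also passed for 2 of 12 SIN3 genes, compared with 7.4% of all genes tested. These were *ARID4A* (log2 1.20, adjusted p = 0.0357) and *ARID4B* (log2 1.42, adjusted p = 0.00843). Unlabeled reads passed as well for 1 of 11 genes for proteins that bind *MYC* mRNA, *ZFP36L2* (log2 1.10, adjusted p = 0.0261), compared with the same 7.4%. Without emetine replicate 3, 7 of the 23 were called in level, compared with 13.9% of all genes: 2 were higher and 5 lower. Without untreated replicate 1, *CAD* and *RRS1* fell in fraction new (2 of 23 compared with 23.8% of all genes). As an example of the list, *ODC1*, the first enzyme of polyamine synthesis, was at 482 ± 15.0 and 424 ± 35.8 CPM (log2 -0.19, adjusted p = 0.284). The list of MondoA and MLX target genes held only 2 genes, and both rose in level, compared with 2.68% of all genes called in either direction. *TXNIP*, an inhibitor of glucose uptake, went from 27.9 ± 1.78 to 114 ± 5.37 CPM (log2 2.03, adjusted p = 5.46e-05), with a fraction new of 92.4 ± 0.677% and 97.5 ± 0.332% (adjusted p = 0.0122, and 0.0760 without emetine replicate 3). *ARRDC4*, its relative, went from 19.7 ± 0.625 to 33.0 ± 7.54 CPM (log2 0.74, adjusted p = 0.0447, and 0.194 without untreated replicate 1). Labeled reads rose for both genes, compared with 0.892% of all genes called. The log2 difference was 2.09 for *TXNIP* (adjusted p = 1.02e-19) and 1.21 for *ARRDC4* (adjusted p = 0.000373, and 0.109 without emetine replicate 3). *MLX* itself was not called in any of the 4 measures.

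The 5 genes most like *MYC*, by distance over the centered log2 level and the logit of the fraction new in the 6 libraries, were *PNRC1*, *CCT6P1*, *KLF11*, *HOXA3* and *PPP1R15A*, with distances of 0.806 to 0.944 compared with a median of 7.65 for 10762 genes. All 5 passed in level (log2 0.56 to 0.81), as did 2.68% of all genes tested. The selection used these same levels and fractions new, so the values of the 5 are a description and not a separate result. *CCT6P1*, a pseudogene whose reads may be shared with its parent gene, went from a fraction new of 76.3% to 62.0%. *PPP1R15A*, which encodes a phosphatase subunit of the stress response, went from 79.1% to 60.4%. The fraction new of *KLF11*, a zinc finger factor, went from 73.9% to 71.1%, that of *HOXA3* from 82.8% to 69.2% and that of *PNRC1* from 75.8% to 65.1%.

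For the 2 h experiment only the authors' mean of normalized counts over all its libraries was used, which does not separate the treatments and has no error. Per kb of transcript this mean was 594 for *MYC*, 484 for *MGA*, 473 for *MAX*, 354 for *MLX*, 240 for *MXD4*, 176 for *MXI1*, 76.9 for *MXD1* and 66.7 for *MNT*. *MYCN* and *MXD3* had no row. *MYC* was again the highest of the members listed. *MGA* per kb was 81.4% of *MYC* in this mean, compared with 3.26% in the mean of the 6 1 h libraries with s4U, while *MXD4* was 40.4% and 41.5%. The 1 h libraries were made with a kit for mRNA and the 2 h libraries with a kit for total RNA, and the part of the kit in this difference was not tested.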

How the data were processed

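The authors trimmed adapters with cutadapt, used hisat-3n to align the 1 h reads to hg38, and counted converted T positions per read with bam2bakR. The deposited values are raw read counts, which were summed per gene and library here. The 2 h signal values are the authors' means of normalized counts, scaled to spike-in reads, and their fold change and p-value columns were not used. Levels were compared with edgeR 4.0.16 (R 4.3.3, TMM and the quasi-likelihood test) where a gene had over 100 counts in all. The fraction new was estimated from a mixture of old and new reads with binomial conversions (Python 3.11.15, numpy 2.4.6, scipy 1.17.1), with the background rate from the libraries without s4U. It was compared on the logit scale, bounded at 0.001 and 0.999, with limma 3.58.1 (trend, robust) where no s4U library had under 100 reads of the gene. The same limma fit was used for log2 of labeled or unlabeled CPM plus 0.5, so these differences understate those of low genes. All tests were two-sided, with p-values adjusted by the Benjamini-Hochberg method over all genes tested. An exact permutation test of 3 libraries against 3 cannot give a p below 0.1. No molecular identifiers are described, so intervals (95%, exact binomial or Wilson) cover counting error only. Each test was tested on simulated data.

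All 10 members are described. From each list of related genes, at most 3 per direction that passed in level or fraction new are named, by smallest p. *ODC1*, *MYCL* the genes singled out among the nearest, *CDC25A* and the genes named for a fit with a library left out were chosen after their values were seen. The genes most like *MAX* in pattern are not reported here. The members and lists were chosen with earlier results of these data known. Reads given to no gene (17.1% to 18.3%) and to spike-ins (0.304% to 0.728%) were left out of library sizes. Symbols were matched to GENCODE 44 on GRCh38 (17147 of 19222), with MANE Select transcripts except for *MGA*, for which the longest coding transcript was used. DESeq2 1.42.0 and other scalings, filters, pseudocounts and subsets of libraries were tried as alternatives. Figures were drawn with matplotlib 3.10.9.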

Additional observations from a re-analysis of the deposited data

How the results depend on the processing

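Of the values per gene and alternative, 387 kept their direction and side of the threshold, 15 newly passed, 5 lost the call and 23 changed direction. The number of members called for level was 1 in the main test, compared with 2.68% of all genes. It was 2 with DESeq2 and with the length trend removed, where 7.08% and 7.11% of all genes were called. With spike-in scaling it was 0, compared with 0.436% of all genes. When 1 library was left out it was 0 to 3, compared with 0.0294% to 13.9% of all genes. For fraction new it was 0 in the main test and 1 after centering, where 8.12% of all genes were called instead of 5.05%. It was 0 to 5 when 1 library was left out. The 5 were *MYC*, *MXD4*, *MNT*, *MGA* and *MLX* without untreated replicate 1, where 23.8% of all genes were called. For labeled reads it was 0 and 0 to 3 when 1 library was left out, the 3 without untreated replicate 1, where 16.7% of all genes were called instead of 0.892%. For unlabeled reads it was 1, and 2 with a pseudocount of 2 CPM, with 7.4% of all genes called in either fit. It was 0 to 2 when 1 library was left out, compared with 2.59% to 16.3% of all genes. With spike-in scaling, chosen for labeled and unlabeled reads after seeing the data, levels turned to 0.58 for *MAX*, 0.56 for *MXD3*, 0.40 for *MXD4* and 0.61 for *MLX*, labeled reads to 0.36 for *MAX*, 0.039 for *MXD3*, 0.37 for *MNT* and 0.50 for *MGA*, and unlabeled reads to 0.54 for *MAX*, 0.52 for *MXD3* and 0.37 for *MXD4*. With the length trend removed, levels turned to 0.066 for *MXD3* and -0.033 for *MNT*. Centering turned the fraction new to 0.0069 for *MAX* and 0.066 for *MXI1*. When 1 library was left out, the values that changed direction ranged from -0.11 (without untreated replicate 1) to 0.027 (without emetine replicate 3) for the level of *MLX*, from -0.14 (emetine 1) to 0.018 (emetine 2) for the fraction new of *MXI1*, from -0.065 (untreated 3) to 0.19 (emetine 2) for labeled *MXI1*, from -0.31 (emetine 3) to 0.044 (emetine 1) for labeled *MGA*, and from -0.24 (emetine 1) to 0.031 (emetine 3) for unlabeled *MXD3*. The cause was not tested.

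Same-numbered libraries did not deviate together (correlations of -0.18 to 0.07 over 10763 genes), so replicate numbers were not taken as pairs. With the replicate number as a block, 1 member (*MYC*) was called for level, 0 for fraction new, 0 for labeled and 1 for unlabeled reads, with a log2 level difference of 0.90 for *MYC* (adjusted p = 0.0355). The block changed no member's call. The spread between 3 libraries a group limits the precision, and at 8 to 14 reads per library a change in *MYCN* was not detectable.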
